A study of Mus musculus with 2 samples.

Results

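The genes described here encode the protein machinery of pre-mRNA splicing. They were chosen by name, as every gene probe whose symbol began with Snrp, Lsm, Sf3a or Sf3b, Prpf, Sfrs or Srsf, or Hnrp or Hnrnp followed by the member's letter or number. The array held 82 such genes on 164 of its 41174 gene probes, and 78 of them could be measured among 9272 genes tested. By subfamily there were 12 Snrp, 13 Lsm, 8 Sf3, 13 Prpf, 16 SR and 20 hnRNP genes. All 82 names were matched to a current symbol, which is used below. The array's Sfrs10, for example, is Tra2b, and its Hnrpf is Hnrnpf.

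The samples were naive CD8+ T cells of C57BL/6 mice, sorted as CD44low CD25low cells, with a stated purity above 90%. The knockout, Bcl11bF/F/dLck-iCre, carries floxed alleles of Bcl11b, a zinc-finger transcription factor of T cells, and an iCre recombinase under the distal Lck promoter, which acts late in thymic development. The wild-type group carries no other stated allele, and no treatment is stated for either group. Each of 2 two-colour arrays set 1 knockout sample in Cy5 against 1 wild-type sample in Cy3. They are labelled as biological replicates, with no word on the number or age of the mice behind a sample. The same dye marked the same genotype on both arrays, so a gene's dye effect and the effect of genotype cannot be told apart.

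Splicing removes introns in a series of steps. U1 and U2 small nuclear ribonucleoproteins (snRNPs) mark the ends of the intron, the U4/U6.U5 tri-snRNP joins, and the assembled spliceosome cuts and joins the RNA. Sm and Lsm proteins form rings around the small nuclear RNAs, the SF3A and SF3B complexes belong to U2, and many Prpf proteins belong to the tri-snRNP. SR proteins generally promote the use of an exon and hnRNP proteins often repress it, and in T cells both kinds set the isoforms of receptors such as CD45.

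Bcl11b itself had log2 ratios of knockout over wild type of -1.45 on array 1 and -1.73 on array 2, a mean of -1.59 ± 0.19 (SD, n = 2; adjusted p = 0.075, limma). A second Bcl11b probe gave -0.35 and -2.32, and neither probe was placed against the floxed exon here. Of 43379 spots for genes, the scanner software marked 17276 (knockout) and 10739 (wild type) as clearly over background on array 1. The numbers for array 2 were 10955 (knockout) and 13446 (wild type). The arrays therefore differed in which channel was detected more widely. The median signal of negative control spots was 985 (knockout, Cy5) and 1087 (wild type, Cy3) on array 1, and 1865 and 1120 on array 2. The part of these levels in the spot numbers was not tested. Log ratios also spread more widely on array 1, with an SD over genes of 1.01 against 0.41 on array 2. In bulk samples such as these, fewer cells of a type and less RNA per cell cannot be told apart.

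No splicing gene of the 78 passed the test across all genes, in either direction, at adjusted p 0.05 (limma). The background was 1.24% of genes called higher and 0.248% called lower. At an unadjusted p under 0.05, 11 members were higher, against 8.18% of all genes, and 1 was lower, against 1.56%. The fit to the 2 arrays had infinite prior degrees of freedom, which gave every gene the same standard error of 0.50. A mean log2 ratio therefore had to reach 1.68 in size to pass.

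The members lay above the other genes on array 1 and close to them on array 2. The median log2 ratio was 0.65 on array 1, where that of all genes was 0.05, and 0.02 on array 2, where that of all genes was -0.01. On array 1, 27 members were more than 2-fold higher in the knockout (background 21.1%) and 2 were more than 2-fold lower (background 5.9%). On array 2 no member was past 2-fold, and the background was 1.96% higher and 0.874% lower. On both arrays alike, 32 members were above 0 (background 30.9%) and 11 were below 0 (background 30.8%), while 35 had opposite signs. Across the 78 genes the ratios of the arrays correlated at Pearson's r = 0.23 and Spearman's rho = 0.20, and across all 9272 genes at 0.29 and 0.32. These are descriptions across genes of the same libraries, and genes are not independent replicates.

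**Figure D1:**
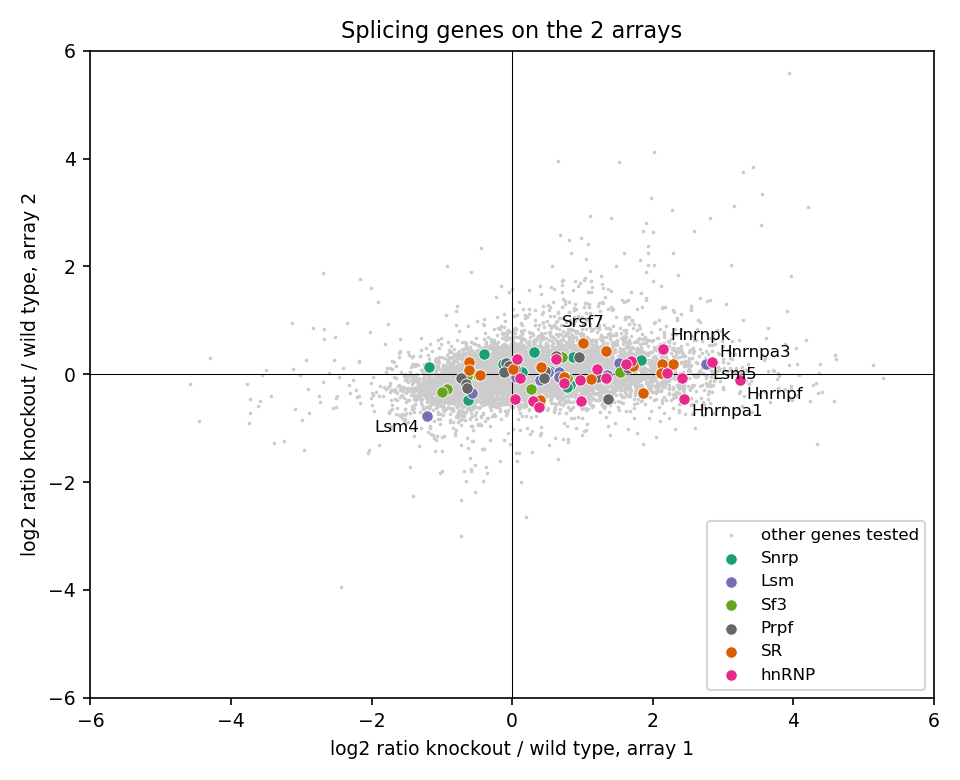
Log2 ratio of knockout over wild type on array 1 (x axis) against array 2 (y axis) for the splicing genes, coloured by subfamily, over the other genes tested (grey, with 1 gene outside the axes). The members spread from -1.22 to 3.24 along array 1 and from -0.77 to 0.57 along array 2.

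The subfamilies were ordered on array 1, with the exon regulators above the snRNP proteins. The median log2 ratio on array 1 was 1.20 over 19 hnRNP genes, 1.01 over 15 SR genes, 0.67 over 11 Lsm genes and 0.46 over 13 Prpf genes. It was 0.22 over 12 Snrp genes and -0.11 over 8 Sf3 genes. The place of Prpf depended on the filter: with all 4 channels well above background its median on array 1 was -0.04, below Snrp at 0.13, and without background subtraction it was 0.21. On array 2 this order was absent, since the medians lay between -0.07 for hnRNP and 0.12 for Snrp. The hnRNP median minus the Sf3 median was 1.31 on array 1 and -0.02 on array 2, a difference between subfamilies that the arrays did not share. Its size on array 1 depended on the setting, from 0.80 with a gene's probes averaged to 1.45 with the deposited value table. With probes averaged the hnRNP median on array 1 was 0.96.

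The counts also set the hnRNP and SR genes above the rest. More than 2-fold higher on array 1 were 10 of 19 hnRNP and 8 of 15 SR genes, but 4 of 11 Lsm, 3 of 13 Prpf, 1 of 12 Snrp and 1 of 8 Sf3 genes. Past 4-fold on that array were 6 hnRNP genes, 3 SR genes and 1 Lsm gene, against 5.49% of all genes. All 19 hnRNP genes were above 0 on array 1 and 8 of them were above 0 on array 2. The hnRNP and SR medians on array 1 were the highest pair under each of the 9 alternative settings, with SR ahead of hnRNP when background was not subtracted, when arrays were centred on their median, and when a gene's probes were averaged. The Sf3 median was the lowest of the 6 except with averaged probes, where Snrp was lowest.

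**Figure D2:**
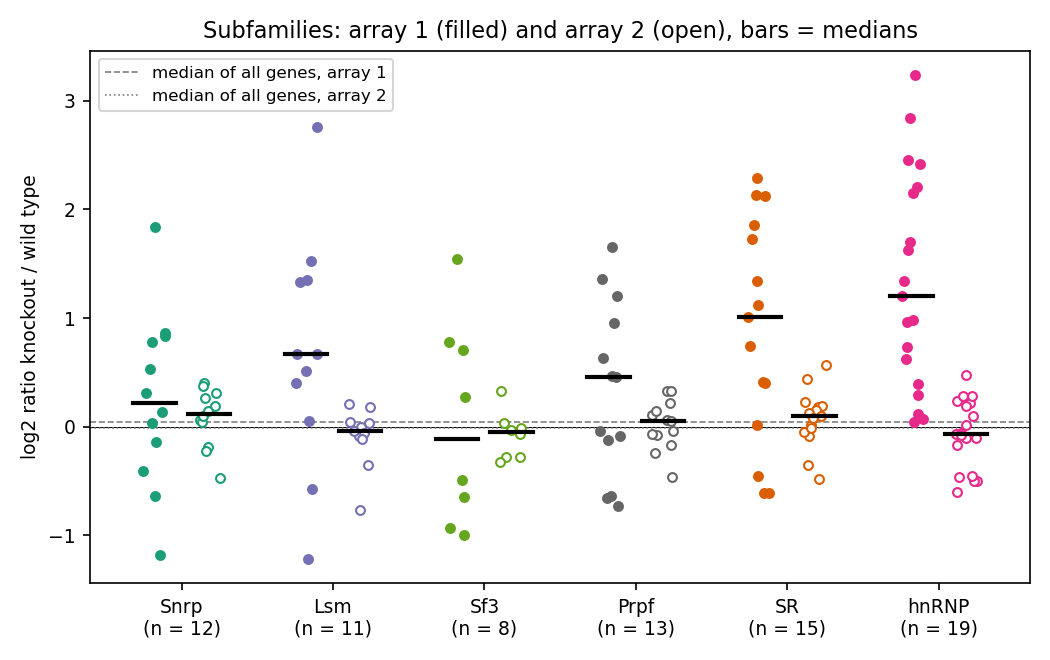
Log2 ratio of knockout over wild type for every measured gene (points) by subfamily, with array 1 filled, array 2 open and a black bar at each median. The filled hnRNP and SR points have medians of 1.20 and 1.01, whereas the open points of all 6 subfamilies have medians between -0.07 and 0.12.

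The Sm proteins, which form the ring common to U1, U2, U4 and U5, had no shared direction. Their 7 genes had median log2 ratios of -0.14 (array 1) and 0.19 (array 2), with 2 above 0 on both arrays and 1 below. Snrpf (SmF) was the one below: its log2 signals were 15.14 and 14.25 in the knockout on arrays 1 and 2 and 15.77 and 14.72 in wild type. The knockout was the lower within each array, but the groups overlapped, since the wild-type signal of array 2 was under the knockout signal of array 1. Its ratios of -0.63 and -0.47 averaged -0.55 ± 0.11 (SD, n = 2). The mean was 0.47 when arrays were centred on the median in place of loess. In that setting the median of all genes tested was 0.68, so Snrpf still lay below it.

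Snrpd1 (SmD1) had log2 signals of 12.39 and 12.08 in the knockout and of 11.53 and 11.76 in wild type, so the groups did not overlap. Its mean log2 ratio was 0.59 ± 0.39 (SD, n = 2; adjusted p = 0.839, limma). Snrpe (SmE) gave 0.31 and 0.41 on the arrays, with knockout signals of 10.64 and 12.31 and wild-type signals of 10.33 and 11.90. For Snrpe the arrays differed more than the genotypes did. Snrpb2, the U2 B'' protein that binds U2 RNA, was the highest Snrp gene, with 14.55 and 13.96 in the knockout and 12.70 and 13.70 in wild type. The groups did not overlap, but the ratio was 1.84 on array 1 and 0.26 on array 2, a mean of 1.05 ± 1.12 (SD, n = 2; adjusted p = 0.432, limma).

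In the U1 particle, which recognises the start of the intron, 6 members had a median log2 ratio of 0.33 on array 1 and of -9.4e-05 on array 2. Snrpa, a U1 protein, had kept probes of opposite sign. The brighter gave 0.53 and 0.06 on the arrays and the other -0.38 and -0.14, so Snrpa has no settled direction.

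Among the SF3A and SF3B subunits, which hold U2 at the branch point, members were spread to both sides of 0. Of 8 genes, 2 were above 0 on both arrays and 4 were below. The median of the mean ratios was -0.13, which became 0.03 with probes averaged. With median centring it was 0.78, where the median of all genes tested was 0.68. Sf3b5, a small SF3B subunit, had log2 signals of 12.38 and 12.36 in the knockout and 13.38 and 12.68 in wild type. Both knockout values were below both wild-type values. The mean log2 ratio was -0.66 ± 0.48 (SD, n = 2; adjusted p = 0.802, limma). With median centring it was 0.22, below the 0.68 of all genes. Sf3a2 had knockout signals of 9.69 and 9.83 and wild-type signals of 10.62 and 10.10, also without overlap, but its knockout signal on array 2 was not well above background. Sf3b4 had ratios of -0.65 and -0.03, with a mean of 0.54 under median centring, also below that of all genes.

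Sf3b1, the large SF3B subunit that contacts the branch point, lay on the other side. Its log2 signals were 11.36 and 10.70 in the knockout and 9.82 and 10.66 in wild type, and the wild-type signal of array 1 was not well above background. The log2 ratio was 1.54 on array 1 and 0.04 on array 2, and with the scanner's processed signals these were 4.89 and -0.02, a mean of 2.43 in place of 0.79. Sf3a1 had ratios of 0.71 and 0.33, yet its second probe gave -0.04 and -0.37. The 3 probes of Sf3b3 had mean ratios of both signs, with array 1 values from -0.49 to 0.61, and averaging them turned the gene's mean from -0.25 to 0.07.

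Promoters of most of these subunits shared a sequence that was in few hnRNP promoters (11.1%), a share near that of all promoters. The letters CCGGAAG, a form of the site bound by ETS factors, were searched on both strands in windows from 250 bases before to 50 bases after the start (RefSeq, GRCm38.p6, the first promoter listed per gene). They occurred in 5 of 6 Sf3 promoters, 7 of 16 SR, 4 of 10 Snrp, 3 of 11 Prpf, 1 of 10 Lsm and 2 of 18 hnRNP promoters. Over the 71 members with a promoter the share was 31.0%, against 9.12% of 27025 promoters of the same length. The members' promoters were also richer in G and C, with a median of 60.0% against 52.7%, and held a median of 25 CG pairs against 7. The 200 bases before the start are shown for 4 Sf3 genes with the match and for a pair of hnRNP genes among the highest on array 1 without it. Sequences run 5′ to 3′ on the gene's strand, and capitals mark the match (CCGGAAG or its reverse complement). Sf3a1 is at chr11:4160154-4160353 (plus strand), Sf3a2 at chr10:80798535-80798734 (plus), Sf3a3 at chr4:124714661-124714860 (plus) and Sf3b2 at chr19:5295458-5295657 (minus). Hnrnpa3 is at chr2:75659059-75659258 (plus) and Hnrnpk at chr13:58402118-58402317 (minus).
Sf3a1: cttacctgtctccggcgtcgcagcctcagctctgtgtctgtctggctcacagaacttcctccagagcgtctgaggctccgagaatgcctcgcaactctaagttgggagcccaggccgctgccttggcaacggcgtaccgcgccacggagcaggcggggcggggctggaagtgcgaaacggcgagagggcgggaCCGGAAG
Sf3a2: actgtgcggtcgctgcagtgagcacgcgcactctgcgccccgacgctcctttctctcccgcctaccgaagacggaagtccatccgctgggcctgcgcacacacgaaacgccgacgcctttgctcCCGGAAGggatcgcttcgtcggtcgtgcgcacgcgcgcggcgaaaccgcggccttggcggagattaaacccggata
Sf3a3: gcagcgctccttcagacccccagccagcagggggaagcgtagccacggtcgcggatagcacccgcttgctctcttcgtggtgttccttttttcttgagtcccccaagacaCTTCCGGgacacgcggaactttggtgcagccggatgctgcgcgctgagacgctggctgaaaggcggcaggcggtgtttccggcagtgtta
Sf3b2: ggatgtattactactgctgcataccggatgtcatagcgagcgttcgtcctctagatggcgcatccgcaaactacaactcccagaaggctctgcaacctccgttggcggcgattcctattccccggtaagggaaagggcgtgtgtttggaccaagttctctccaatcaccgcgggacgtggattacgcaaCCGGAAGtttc
Hnrnpa3: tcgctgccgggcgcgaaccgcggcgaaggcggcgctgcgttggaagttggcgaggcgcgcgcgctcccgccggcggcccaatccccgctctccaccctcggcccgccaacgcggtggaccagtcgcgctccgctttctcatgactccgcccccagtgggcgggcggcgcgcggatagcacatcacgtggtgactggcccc
Hnrnpk: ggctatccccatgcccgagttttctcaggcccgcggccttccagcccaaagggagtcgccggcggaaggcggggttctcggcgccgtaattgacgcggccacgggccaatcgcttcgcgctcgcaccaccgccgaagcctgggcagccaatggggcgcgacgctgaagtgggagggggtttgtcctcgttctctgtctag

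A match is a description of these letters and shows no binding, and its relation to the ratios was not tested. SR promoters, whose genes were also high on array 1, had the ETS letters in 43.8%. The printed Sf3 genes had array 1 ratios of 0.71 (Sf3a1), -0.93 (Sf3a2), 0.78 (Sf3a3) and 0.28 (Sf3b2). The letters CGCATGCG (the site of NRF1) were found in 3 of 71 members' promoters against 1.91% of all, and AAGATGGC (YY1) in 4 of 71 against 2.88%. The letters TGACCA, bound by the related factor BCL11A, were found in 7 of 71, or 9.86%, against 13.6% of all promoters. Both strands were searched for each, and each motif was counted on its own, although the ETS and YY1 letters can share the bases AAG.

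The Lsm genes held both a high and a low extreme. Lsm5 and Lsm4 are subunits of the same ring, which binds the end of U6 RNA. Lsm5 had log2 signals of 13.64 and 13.02 in the knockout and 10.89 and 12.83 in wild type. Both knockout signals were above both wild-type signals, and the low one was wild type on array 1. The ratios were 2.76 and 0.19, a mean of 1.47 ± 1.82 (SD, n = 2; adjusted p = 0.125, limma). The 95% interval, from 0.50 to 2.45, uses the standard error shared by all genes and not this gene's spread. The array places this probe at mm8 chr6:56630804-56630863, minus strand.

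Lsm4 was the lowest member on both arrays. Its log2 signals were 14.97 and 14.54 in the knockout and 16.19 and 15.31 in wild type, without overlap. The ratios of -1.22 and -0.77 averaged -0.99 ± 0.32 (SD, n = 2), a 1.99-fold lower signal with a 95% interval of the log2 ratio from -1.96 to -0.02 and adjusted p = 0.493 (limma). It was the 1 member lower at an unadjusted p under 0.05. Its mean was 0.06 when arrays were centred on their median, where the median of all genes tested was 0.68. The probe is at mm8 chr8:73607626-73607684, plus strand. Lsm7, of the same ring, gave -0.57 and -0.35, and 0.58 as a mean with median centring, also below that of all genes.

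Over the ring as a whole, 6 genes had median log2 ratios of 0.59 (array 1) and -0.01 (array 2), with 3 above 0 on both arrays and 2 below. Lsm3, also of the ring, gave 0.67 and 0.05. Lsm14a and Lsm14b, which act on cytoplasmic mRNA, had a median of 1.44 on array 1 and 0.10 on array 2, and both lacked a wild-type signal well above background on array 1. Lsm14b gave 1.52 and 0.21, and 3.56 and 0.39 with the scanner's processed signals.

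The Prpf genes, largely tri-snRNP and U1-linked factors, were mixed. Of 13, 4 were above 0 on both arrays and 3 below. Prpf18, which acts in the second catalytic step, had log2 signals of 12.79 and 12.11 in the knockout and 11.14 and 12.01 in wild type. The groups did not overlap, and the ratio was 1.65 on array 1 and 0.11 on array 2 (adjusted p = 0.607, limma). Prpf4b, a kinase of splicing factors, gave 0.96 and 0.33, and Prpf3, of U4/U6, gave 0.63 and 0.33.

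Prpf8, the U5 protein at the catalytic centre, had log2 signals of 12.05 and 12.80 in the knockout and 12.69 and 13.04 in wild type. The knockout was lower on each array, and the groups overlapped. The ratios were -0.64 and -0.25, but a second probe gave 0.31 and 0.13. With median centring the mean of the first probe was 0.43, where the median of all genes tested was 0.68. Prpf31, which bridges U4/U6 and U5, had 13.66 and 13.71 in the knockout and 14.32 and 13.88 in wild type, without overlap. Its mean ratio of -0.41 ± 0.34 (SD, n = 2) was 0.54 with median centring, also below that of all genes. Prpf40b gave -0.73 and -0.06. The 5 tri-snRNP members measured had medians of -0.12 and 0.05 on the arrays, and none was past 2-fold.

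SR genes had the second highest median on array 1. The 7 classical SR genes measured had median log2 ratios of 1.12 (array 1) and 0.10 (array 2), with 5 above 0 on both arrays and none below, and 5 were more than 2-fold higher on array 1. The 8 other SR-related genes had medians of 0.58 and 0.11, with 3 above 0 on both arrays and 1 below, and 3 were more than 2-fold higher on array 1. The difference between these kinds was not tested. Of all 15, 3 were higher at an unadjusted p under 0.05.

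Tra2b, an activator of exons, had log2 signals of 13.98 and 12.69 in the knockout and 11.69 and 12.50 in wild type. The 2 knockout signals were the upper pair. Its ratios were 2.29 and 0.19, a mean of 1.24 ± 1.49 (SD, n = 2; adjusted p = 0.274, limma). A second Tra2b probe gave 2.22 and 0.46, close to the first on array 1. Srsf9 had 13.54 and 12.01 in the knockout and 11.40 and 11.82 in wild type, also without overlap, with ratios of 2.13 and 0.19.

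Srsf2 (SC35), an SR protein that recognises exonic enhancers, depended on the probe. Its brightest probe, at mm8 chr11:116665976-116666002 (minus strand), had log2 signals of 13.89 and 12.77 in the knockout and 11.77 and 12.76 in wild type. The groups did not overlap, but on array 2 they were almost equal. The ratios were 2.12 and 0.02, while its 4 kept probes ran from -0.36 to 2.12 on array 1. Srsf7 was the highest member on array 2, at 0.57, with 1.01 on array 1. Its signals were 13.97 and 13.38 in the knockout and 12.96 and 12.80 in wild type, without overlap, and its mean was 0.79 ± 0.31 (SD, n = 2; adjusted p = 0.689, limma). Sfswap, a splicing regulator, was the low SR gene with the same sign on both arrays, at -0.46 and -0.01. Its mean was 0.56 with median centring, where the median of all genes tested was 0.68.

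The hnRNP genes had the highest median of the subfamilies on array 1, and 6 of 19 were higher at an unadjusted p under 0.05. By kind, the median log2 ratio on array 1 was 2.04 over 4 hnRNP A genes and 1.70 over 4 genes of the F and H kind. It was 0.98 over the 3 genes of the AB and D kind, 1.69 over 2 of the U kind and 0.37 over 2 of the L kind. On array 2 these medians lay between -0.17 and 0.11.

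Hnrnpf, which binds runs of G, was the highest member on array 1. Its log2 signals were 16.50 and 15.47 in the knockout and 13.27 and 15.57 in wild type. The low signal was wild type on array 1, and the wild-type signal of array 2 was above the knockout signal there, so the groups overlapped. The ratios of 3.24 and -0.11 averaged 1.57 ± 2.36 (SD, n = 2; adjusted p = 0.083, limma). The 95% interval, from 0.59 to 2.54, uses the standard error shared by all genes. It does not measure the spread of this gene, whose ratios had opposite signs. This probe is at mm8 chr6:117891108-117891167 (plus strand), and a second one, at chr6:117889534-117889593, gave 0.33 and -0.09.

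Hnrnpa3, a shuttling A-type protein, had log2 signals of 16.77 and 16.41 in the knockout and 13.92 and 16.19 in wild type. The knockout signals were both above the wild-type signals, by little on array 2. The ratios of 2.84 and 0.22 averaged 1.53 ± 1.86 (SD, n = 2; adjusted p = 0.098, limma). It passed with median centring (mean 2.65, adjusted p = 0.042) and with a trended, robust variance (adjusted p = 0.015), where Hnrnpf also passed (adjusted p = 0.033, limma). With all kept probes averaged the mean was 0.97 for Hnrnpa3 (adjusted p = 0.453) and 0.84 for Hnrnpf (adjusted p = 0.582, limma). Over the 9 alternatives the adjusted p ran from 0.015 to 0.635 for Hnrnpa3 and from 0.033 to 0.644 for Hnrnpf. Of its 4 probes on mm8 chromosome 2, 3 were above 1 on array 1, and the lowest was 0.65.

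Hnrnpk, which binds runs of C, was the hnRNP gene with the largest ratio on array 2, at 0.48. Its signals were 16.85 and 16.11 in the knockout and 14.70 and 15.63 in wild type, without overlap, and its mean log2 ratio was 1.31 ± 1.18 (SD, n = 2; adjusted p = 0.216, limma). A second probe gave 2.12 on array 1, against 2.15 for the first, and -0.14 on array 2. Hnrnph1, of the F and H kind, had 14.47 and 12.85 in the knockout and 12.26 and 12.84 in wild type, with ratios of 2.21 and 0.02.

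Hnrnpll and Hnrnpd are hnRNP genes with known functions in lymphocytes. Hnrnpll, which represses variable exons of the CD45 gene in activated and memory T cells, had log2 signals of 10.67 and 10.39 in the knockout and 10.55 and 10.47 in wild type. The 4 signals lay close together and overlapped. Its mean log2 ratio was 0.02 ± 0.14 (SD, n = 2), with a 95% interval from -0.95 to 1.00, and it was -0.01 without background subtraction. Its 2 other probes did not pass the filter and gave 2.56 and 1.05 on array 1. Hnrnpd (AUF1), which controls the decay of cytokine mRNAs, had 13.65 and 13.74 in the knockout and 12.67 and 14.24 in wild type. For Hnrnpd the wild-type samples held both the lowest and the highest signal, and the ratios were 0.98 and -0.50.

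**Figure D3:**
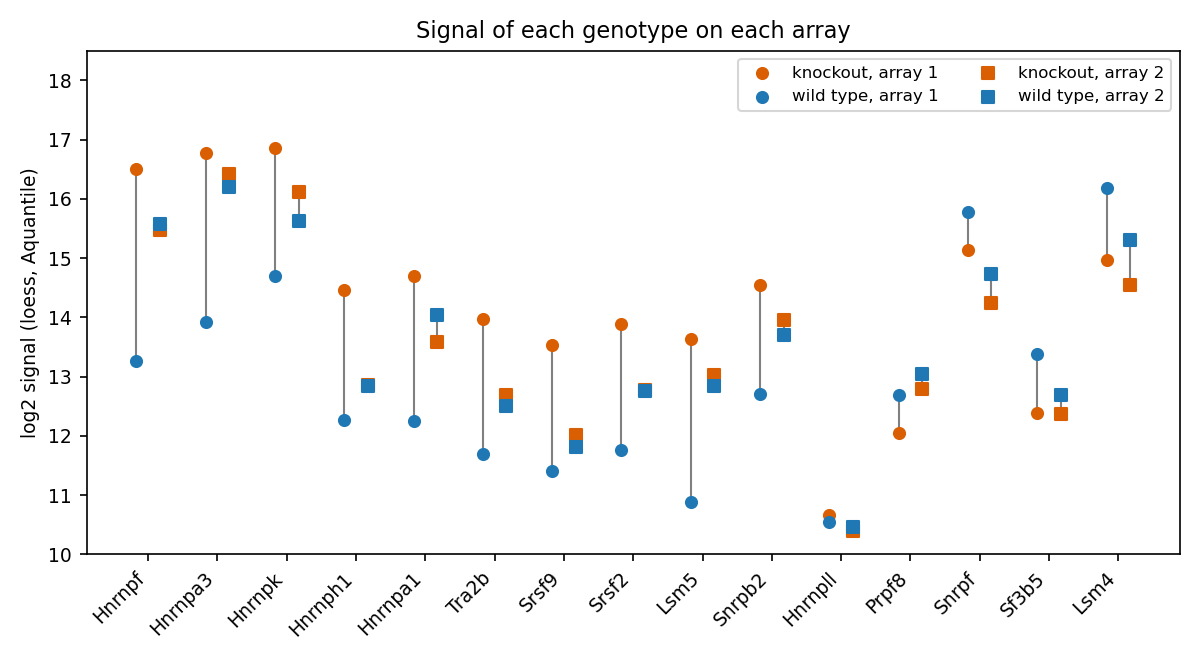
Log2 signal after loess and Aquantile normalisation (y axis) of 15 named genes, with knockout in orange and wild type in blue, array 1 as circles and array 2 as squares, joined within an array. In the first 10 genes the wild-type circle is the lowest point, as for Hnrnpf at 13.27, whereas Lsm4 has both wild-type points above both knockout points.

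Channel signals were also compared between the arrays. Each was computed from a gene's mean intensity and its ratio. A high array 1 ratio beside a small array 2 ratio therefore tends to put wild type lowest and knockout highest on array 1. The values below partly restate that ratio and do not settle which sample it came from. The wild-type sample of array 1 was the lowest of the 4 channels in 41 of the 78 members, or 52.6%, against 37.3% of all genes. The knockout sample of array 1 was the highest in 46, or 59.0%, against 35.3%. For hnRNP genes each count was 14 of 19. The median difference between the wild-type samples, array 1 minus array 2, was -0.93 over hnRNP genes, -0.38 over SR genes and -0.23 over all members, where all genes had 0.09. Between the knockout samples it was 0.68, 0.59 and 0.50, where all genes had 0.12. For hnRNP genes the wild-type difference was larger in size than the median of the mean log2 ratios, 0.64. Both values contain the array 1 ratio, so they are not separate results.

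Both knockout signals were above both wild-type signals in 21 members (background 21.2%), 7 of them SR and 6 hnRNP genes. Both were below in 4 (background 20.8%), which were Lsm4, Prpf31, Sf3a2 and Sf3b5. The count above is near the share of all genes, and the count below is smaller than that share would give.

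Probes of one gene could differ in size and sign. In 30 members with at least 2 kept probes, all probes had the same sign in 22 genes on array 1 and in 17 on array 2, and the sign of the mean differed between probes in 9. The median gap between a gene's highest and lowest probe was 0.75 on array 1 and 0.27 on array 2, where the members' ratios as a whole had SDs of 1.02 and 0.27. Hnrnpa1, an abundant exon repressor, had the widest gap, with 3 kept probes from -0.99 to 2.45 on array 1, all on mm8 chromosome 15. The brightest of them had log2 signals of 14.70 and 13.58 in the knockout and 12.25 and 14.05 in wild type, and the groups overlapped. Other genes had probes close together on array 1, among them Hnrnpa2b1 with 1.62 for both probes, Srsf11 with 1.85 and 1.86, and Tra2b.

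**Figure D4:**
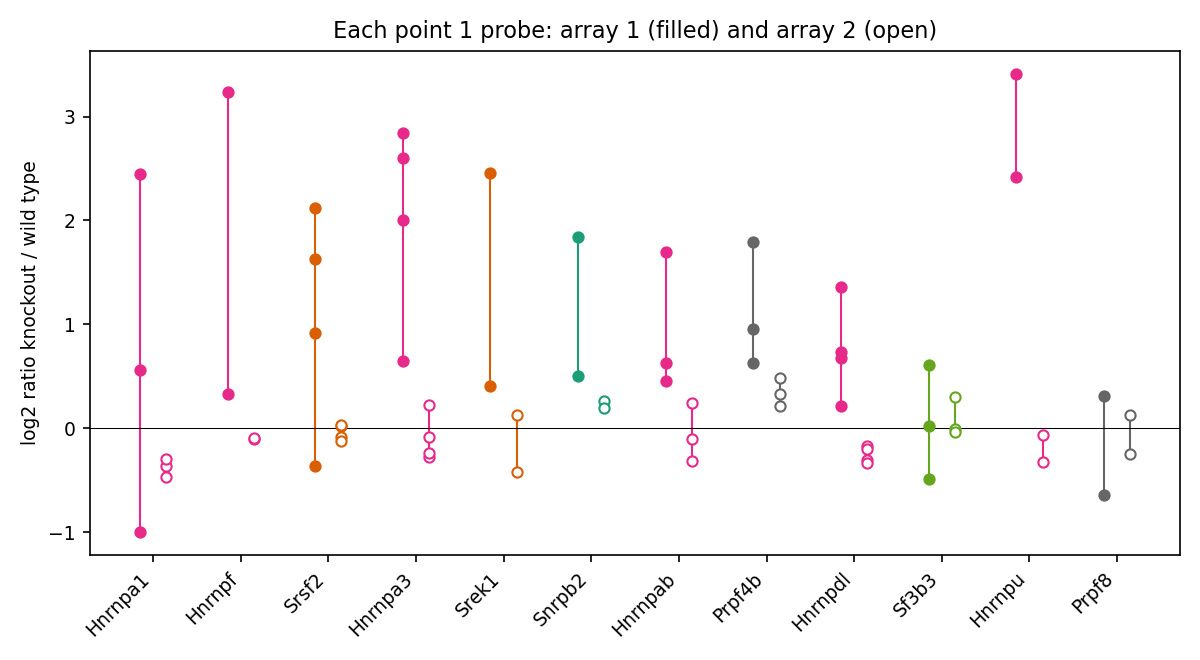
Log2 ratio of knockout over wild type for each kept probe (points) of the 12 genes with the widest gap between probes on array 1, with array 1 filled and array 2 open. The filled points of Hnrnpa1 run from -0.99 to 2.45 and those of Srsf2 from -0.36 to 2.12.

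Members that could not be measured were Lsm2, Lsm11, Srsf3 and Hnrnpul2, none of which was clearly detected by 1 genotype's channel on array 1 and array 2 alike. Of the 78 measured, 68 were well above background in all 4 channels. A further 8, with Lsm14a, Lsm14b and Sf3b1 among them, were not so in wild type on array 1, and Prpf40b and Sf3a2 were not in the knockout on array 2. No member was saturated.

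Other splicing genes came from 4 lists of 102 genes, 2 of which (Tra2b and Scaf4) are members and were left out, and 88 were measured. Their median log2 ratio was 0.62 on array 1 and 0.04 on array 2, and 1 gene was called higher and 1 lower (adjusted p under 0.05, background 1.24% and 0.248%). Luc7l3, a U1-linked SR-like protein, rose, with ratios of 2.85 and 0.54 and adjusted p = 0.045 (limma). Khsrp, a KH-domain protein of splicing and mRNA decay, fell, with ratios of -3.00 and -0.84 and adjusted p = 0.014 (limma). Neither passed without background subtraction, with the scanner's processed signals, with arrays scaled to the same spread, without the filter on dim probes, or in the deposited value table. Luc7l3 also failed where all channels had to be well above background, and Khsrp with median centring.

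By list, 44 core spliceosome genes had medians of 0.43 and 0.02 on the arrays, with 17 above 0 on both and 8 below. Smndc1, a spliceosome assembly factor, gave 3.11 and 0.08, while U2af1, which reads the 3′ splice site, gave -1.22 and -0.20 and Eftud2, a U5 GTPase, gave -0.84 and -0.24. The 15 SR-like regulators and kinases had medians of 0.65 and 0.20, with 9 above 0 on both arrays and none below. Tra2a gave 1.85 and 0.75 and Rbm39 gave 2.14 and 0.40. The 22 other RNA-binding regulators had medians of 1.06 and -0.15, near those of the hnRNP genes, with Celf2 at 2.05 and 0.06 and Tial1 at 1.73 and 0.09. The 7 SMN-complex and Sm-assembly genes had medians of 0.08 and -0.05, and all 7 had opposite signs on the arrays.

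Genes used as cell type markers moved with genotype or with array. Whether such a gene changed within the sorted CD8+ T cells or came with other cells cannot be told apart in these samples. Of 7 natural killer markers 4 were called higher, and their summed signal was 24585 and 98655 in the knockout on arrays 1 and 2 and 7385 and 9911 in wild type. Of 9 myeloid markers 6 were measured and 4 called higher, with sums of 74434 and 56191 in the knockout and 35159 and 59842 in wild type. Cd68, Cybb and Itgam were not well above background in any channel. As for the hnRNP genes, the lowest myeloid sum was that of wild type on array 1. That sample also had the lowest natural killer, CD8, red cell and plasma cell sums. It did not have the lowest T cell, CD4 T cell or B cell sum. The T cell markers, all 6 measured, summed to 173598 and 147197 in the knockout and 131210 and 126429 in wild type. Cd8a and Cd8b1 were well above background in all channels. Their sums were 213827 and 218718 in the knockout and 103911 and 134597 in wild type. Cd8b1 gave ratios of 1.11 and 0.93, and Cd8a 0.79 and -0.28. Of 3 plasma cell markers 2 were measured, and the sums over the list had the same lowest sample, at 6932 and 3504 in the knockout and 1865 and 3093 in wild type. Jchain, a joining chain of antibodies, was called higher, with ratios of 3.34 and 0.07 (adjusted p = 0.042, limma). The haemoglobin gene Hba-a1, the 1 red cell marker measured, gave 2.56 and 0.30, and the red cell sums were 2106 and 2866 in the knockout and 1451 and 2510 in wild type. Of 6 B cell markers 2 were measured, Ms4a1 at 1.28 and 0.38 and Cd79b at -0.51 and -0.14, and the sums were 7615 and 6493 in the knockout and 8896 and 6652 in wild type. Of 3 CD4 T cell markers Cd4 gave -0.65 and -0.21 and Cd40lg -0.39 and -0.08, with sums of 1884 and 2050 in the knockout and 2641 and 2334 in wild type. Cd79a and Blk of B cells, Foxp3 of CD4 T cells and Alas2 of red cells were not well above background. The part of these markers, and of the number of spots detected per channel, in the splicing ratios was not tested.

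Ratios of the members showed little relation to gene length on either array. Loess removes the trend of the ratio with brightness on each array, so a low correlation with brightness was largely set by that step. Across the 78 genes the array 1 ratio correlated with the mean log2 intensity at r = 0.06 and rho = 0.02, and with the log10 length of the gene at r = 0.10 and rho = 0.08. For the array 2 ratio these were r = -0.09 and rho = -0.11 with intensity, and r = 0.07 and rho = 0.006 with length. Across 8358 genes with a length, the array 1 ratio correlated with length at r = 0.23 and rho = 0.24, and the array 2 ratio at r = -0.04 and rho = -0.02. The points share the same libraries, and these are descriptions only.

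**Figure D5:**
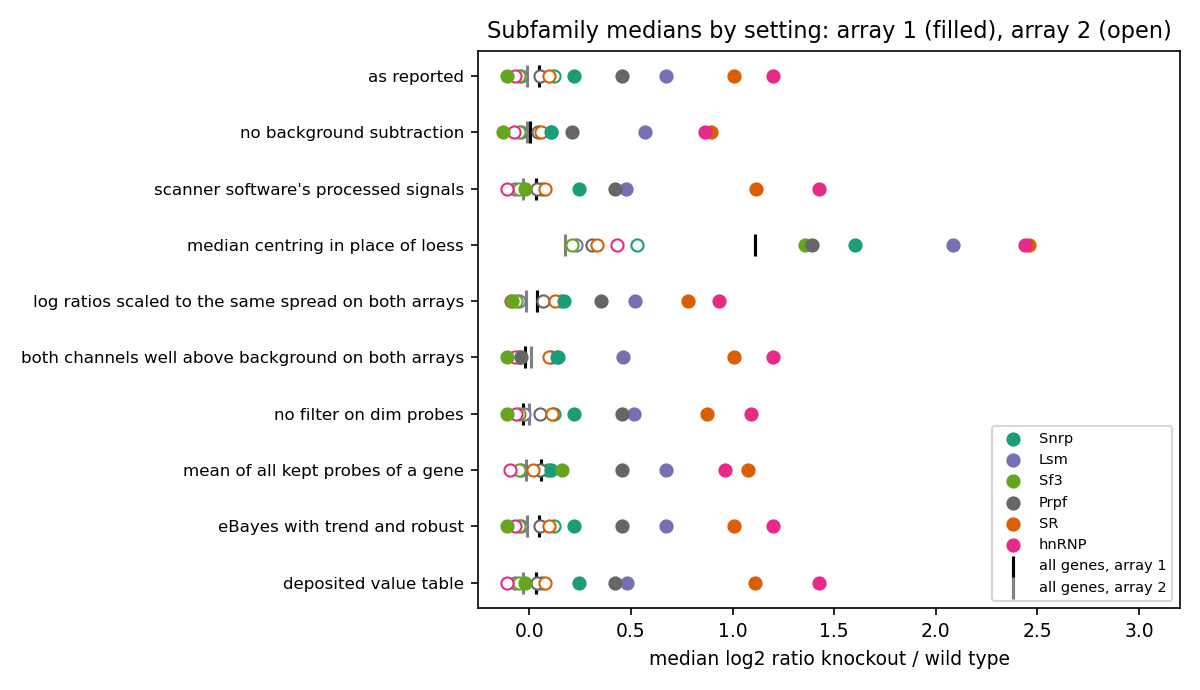
Median log2 ratio of each subfamily (x axis) under the reported setting and 9 alternatives (rows), with array 1 filled, array 2 open, and ticks at the medians of all genes. The filled hnRNP and SR points lie farthest to the right in each row, and median centring moves all points to the right.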

How the data were processed

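Per the submitters' processing notes, the scans were quantified by Agilent Feature Extraction (version 9.5.3.1). RNA was extracted with Trizol, amplified linearly and labelled chemically, per the labels' protocols. The deposited scanner files hold linear intensity values and local backgrounds per spot, not normalised per the file headers, and log10 ratios from the scanner software. The deposited value table holds log10 ratios that match these within 0.005.

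Ratios were computed here with limma 3.58.1 in R 4.3.3: normexp (offset 50), loess within arrays, removal of control and outlier spots, and the mean over the spots of each probe. Kept probes had to be called well above background for at least 1 genotype on array 1 and array 2 alike, and the brightest kept probe stood for its gene. Mean log2 ratios were tested two-sided with lmFit and eBayes, with Benjamini-Hochberg adjustment over 9272 genes. The prior degrees of freedom were infinite, and 95% intervals use the shared standard error. SDs are between the 2 arrays, whose number limits the precision. Channel signals were taken after loess and Aquantile normalisation, and marker sums are of linear signals. Dim genes have ratios pulled towards 0, since the background removed was small. Both arrays lay on 1 slide, so slide could not be tested.

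Probe positions refer to mm8, per the file headers, as the array's makers gave them, and neither the gene models of that build nor the probe sequences were used here. Names came from the RefSeq table of GRCm38.p6. Of 41174 gene probes, 24375 were matched by accession, 6301 by current symbol and 2426 by older symbol, and 8072 kept their name. In each subfamily up to 3 members per direction were named, by the largest mean ratio among genes whose 2 ratios shared a sign and whose knockout and wild-type signals were both well above background on 1 array or more. The extremes of each array, up to 6 genes with probes of opposite sign, and Hnrnpll, Hnrnpd, Srsf2, Sf3b1 and Prpf8 were added, and of each other splicing list up to 2 genes per direction. Further names were chosen after their values were seen. The members, lists and tests were chosen with earlier results of these data known. Abundant members such as Hnrnpa1 have processed pseudogenes, whose transcripts a probe may also detect. The fit was run on simulated ratios with the same spread and the same effects on both arrays. The arrays here differed in spread, so that run checked the code only.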

Additional observations from a re-analysis of the deposited data

How the results depend on the processing

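The 2 arrays limit all values: array 1 spread more widely and so weighed more in most means, dim probes are compressed, and the dyes were not swapped. Each log ratio sets the knockout against the wild-type sample of the same array, so the test was paired by array. No further pairing was possible, because the arrays form 1 group of ratios, with no second group that shares their replicate numbers. Counts of all genes called higher and lower were 27 and 8 without background subtraction, 64 and 1 with median centring, 25 and 14 with all channels well above background, and 220 and 45 with a trended, robust variance. They were 0 and 0 with limma on the scanner's processed signals, on the deposited value table, on arrays scaled to the same spread, and without the filter, where 0, 0, 4 and 1 members were higher and 0, 0, 1 and 3 lower at an unadjusted p under 0.05. Higher and lower by that measure were 16 and 2 members without background subtraction, 28 and 0 with median centring and 16 and 1 with all channels well above background. Other splicing genes called numbered 1 with median centring and 1 with all channels well above background, and 0 under the other settings that lost all calls or did not subtract background. Members called higher numbered 1 with median centring and 2 with the trended variance. No member was called lower under any of the 9 settings.

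Median centring moved the median of all genes by 0.65 on the log2 scale, the share of higher genes among those called from 83.3% to 98.5% (64.1% with all channels well above background), and the members' median to 1.17. The medians of Snrp, Lsm, Sf3, Prpf and SR became 1.07, 1.16, 0.78, 0.90 and 1.29. The means of Snrpf, Lsm4, Lsm7, Sf3b5, Sf3b4, Prpf8, Prpf31, Sfswap and Sf3b3 turned to 0.47, 0.057, 0.58, 0.22, 0.54, 0.43, 0.54, 0.56 and 0.61. Each of these was still below the median of all genes tested in that setting, 0.68. The Snrp median was 0.093 without background subtraction, 0.088 with all channels well above background and 0.057 with probes averaged. The Sf3 median was -0.057 with the processed signals, -0.057 with the value table and 0.031 with probes averaged, and ranged from -0.11 to -0.049 with 1 array left out. Hnrnpll turned to -0.0089 without background subtraction and -0.0012 on scaled arrays, and Sf3b3 to 0.066 with probes averaged. The cause was not tested. With array 1 left out the medians were 0.02 over all members, -0.07 for hnRNP, 0.10 for SR, 0.05 for Prpf, -0.04 for Lsm and 0.12 for Snrp. With array 2 left out they were 0.65, 1.20, 1.01, 0.46, 0.67 and 0.22. The Prpf median was 0.066 with all channels well above background and 0.079 without background subtraction, against 0.19 as reported.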
